A study of Mus musculus with 5 samples.

Results

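The 9 genes described here are 8 members of the poly(ADP-ribose) polymerase (PARP) family, Parp1, Parp2, Parp8, Parp9, Parp10, Parp11, Parp12 and Parp14, together with Dtx3l, whose protein is the ubiquitin ligase partner of PARP9. They were chosen by symbol from the 41388 genes of a table of read counts, and all 9 were among the 12240 genes with enough counts to be tested. RNA had been sequenced from sorted microglia, the tissue macrophages that live in the brain, taken from 4 weeks old C57Bl/6 mice. All mice had received 2 mg tamoxifen on postnatal days 14 and 16, and eYFP-positive cells were collected after papain digestion. The A20 deletion group (genotype label eYFP-A20Dmg, 3 libraries) was labelled as fully deficient for A20, the ubiquitin-editing enzyme encoded by Tnfaip3 that restrains NF-kB signalling. The control group (eYFP-A20fl/wt Cx3cr1-CreERT2/+, 2 libraries) was labelled as partially deficient. Its mice were heterozygous for the floxed A20 allele and had CreERT2, the Cre recombinase that tamoxifen switches on, at Cx3cr1, a locus that other mononuclear phagocytes also use. The control is therefore not an A20-intact group. The label of the A20 deletion group does not spell out its alleles, and no label ties each library to an animal of its own. P-values thus measure the spread between these libraries, which may be partly technical.

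PARP enzymes take ADP-ribose from NAD+ and attach it to proteins. PARP1 and PARP2 are nuclear, are switched on by DNA strand breaks and build chains of ADP-ribose, whereas PARP8, PARP10, PARP11, PARP12 and PARP14 attach single units. PARP9 has macrodomains that bind ADP-ribose and works in a complex with DTX3L. In macrophages and other cells Parp9, Parp10, Parp12, Parp14 and Dtx3l are known as interferon-stimulated genes, and PARP1 and PARP2 serve as the constitutive members of the family.

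The libraries differed in structure. They held between 9726334 and 12883827 counts in the A20 deletion group and 13946211 and 15275199 in the controls. Mitochondrial transcripts took 0.847%, 4.63% and 3.56% of the counts in A20 deletion replicates 1 to 3, against 1.19% and 0.852% in the controls, and genes of above-median exon length held 44.9%, 37.8% and 38.5%, against 48% and 46.9%. Xist was counted 616 times in A20 deletion replicate 1 and 780 times in control replicate 1, and 0 times in the other 3 libraries, so both groups mix female and male samples. Tnfaip3 itself had 294.2, 276.6 and 347.1 CPM (read counts scaled by library total) in A20 deletion libraries, against 453.5 and 94.64 CPM in controls (edgeR adjusted p = 0.881). The deleted exons are not named in the labels, so a count over the whole gene is no check of the deletion. Markers of microglia summed to between 32430 and 36010 CPM in A20 deletion libraries, and to 43360 and 48510 CPM in controls. The 8 monocyte markers summed to 79.18, 34.23 and 62.67 CPM, against 18.62 and 13.2 CPM, with F10 at 0 in both controls. Of these 8 markers, 5 had enough counts for the test and 2 passed as higher. The 12 T and NK cell markers summed to between 6.206 and 9.346 CPM, against 0.9237 and 1.602 CPM. Of these, 8 (among them Cd3e and Trac) had 0 counts in both controls, and 0 of the 2 with enough counts for the test passed. Replicates 2 and 3 stood apart in glial markers. The 4 astrocyte markers summed to 59.88, 222.2 and 216.8 CPM in A20 deletion libraries, against 75.95 and 114.6 CPM in controls, and the 4 oligodendrocyte markers to 99.26, 207 and 200.5 CPM, against 73.18 and 100.2 CPM. The 4 endothelial markers were highest in replicate 1, at 111.3, 58.89 and 56.47 CPM, against 64.73 and 69.14 CPM. Other sets split the controls. The 6 neutrophil markers summed to 9.259, 1.727 and 4.578 CPM in A20 deletion libraries, against 18.05 and 0.833 CPM in control replicates 1 and 2. The 6 border macrophage markers summed to 88.79, 77.18 and 85.77 CPM, against 52.93 and 114 CPM. The part of these cells, of sex and of library structure in the results below was not tested beyond the values given beside them.

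On GRCm38 the 9 protein-coding genes lie on 6 chromosomes, and 3 of them are close together. Parp9 (ENSMUSG00000022906, chromosome 16, 35938470 to 35972605, plus strand) and Dtx3l (ENSMUSG00000049502, chromosome 16, 35926511 to 35939151, minus strand) run head to head, and their annotated 5′ ends overlap. The shared stretch holds 458 exon bases, which is 9.4% of the exon length of Parp9 and 8% of that of Dtx3l. Because the strand setting of the counting is not given in the sources used here, reads from this stretch cannot be assigned to either gene. Parp14 (ENSMUSG00000034422, chromosome 16, 35832874 to 35871544, minus strand) lies 54966 bases from Dtx3l. Parp10 (ENSMUSG00000063268) is on chromosome 15, from 76231174 to 76243441, and shares 205 exon bases (4.8%) with Plec on the same strand. Parp12 (ENSMUSG00000038507) and Parp11 (ENSMUSG00000037997) are both on chromosome 6, at 39086410 to 39118349 and 127446840 to 127494261. Parp8 (ENSMUSG00000021725) is on chromosome 13, from 116854820 to 117025537. Parp1 (ENSMUSG00000026496) is on chromosome 1, from 180568924 to 180601254, and Parp2 (ENSMUSG00000036023) on chromosome 14, from 50807841 to 50821301.

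RefSeq promoter windows (build GRCm38.p6, 250 bases before to 50 after a transcription start) were held for 6 of the 9 genes, with 2 windows for Parp11. Parp9, Parp10 and Parp14 had no entry. The windows of 3 genes are shown because they belong to genes with different levels across the libraries, as described below. Capitals mark matches on either strand to GAAANNGAAA, the core of the interferon-stimulated response element, or to TTCNNNGAA, the core of the gamma-activated site.
Parp11, first start, chr6:127446590-127446889, plus strand: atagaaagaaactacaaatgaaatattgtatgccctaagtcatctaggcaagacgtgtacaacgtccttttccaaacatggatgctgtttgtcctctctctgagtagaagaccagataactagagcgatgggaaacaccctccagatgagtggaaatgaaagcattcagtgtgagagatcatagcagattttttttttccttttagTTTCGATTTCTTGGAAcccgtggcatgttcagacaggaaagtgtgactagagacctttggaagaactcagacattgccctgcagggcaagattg
Parp12, chr6:39118300-39118599, minus strand: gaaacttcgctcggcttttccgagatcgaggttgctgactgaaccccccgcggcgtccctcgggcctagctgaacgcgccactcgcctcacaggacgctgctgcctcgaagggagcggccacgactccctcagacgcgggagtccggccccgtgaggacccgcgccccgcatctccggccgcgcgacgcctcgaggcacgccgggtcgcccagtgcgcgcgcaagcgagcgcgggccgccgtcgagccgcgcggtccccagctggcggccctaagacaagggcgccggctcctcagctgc
Dtx3l, chr16:35938978-35939277, minus strand: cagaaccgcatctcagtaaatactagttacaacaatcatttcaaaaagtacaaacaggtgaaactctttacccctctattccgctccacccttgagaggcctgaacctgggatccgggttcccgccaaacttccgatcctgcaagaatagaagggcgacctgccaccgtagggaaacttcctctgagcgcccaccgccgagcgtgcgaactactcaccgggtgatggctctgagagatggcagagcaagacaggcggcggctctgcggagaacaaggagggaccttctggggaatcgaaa
The first Parp11 window held 1 match to each motif, TTTCGATTTC beginning 44 bases before the start and TTCTTGGAA beginning 37 bases before it, and the pair overlapped. The other 6 windows held 0 matches to either. Over all 32851 promoter windows of this length, 3.44% held GAAANNGAAA and 8.3% held TTCNNNGAA. The NF-kB consensus was matched in 0 of the 7 windows and in 8.46% of all windows. A match is a description of letters, and its absence says nothing of a factor outside or inside the window. The Dtx3l window lies within the annotated body of Parp9.

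The comparison of A20 deletion with control microglia asks how the transcriptome differs when A20 is lost more fully. None of the 9 genes passed the threshold (edgeR quasi-likelihood test, Benjamini-Hochberg adjusted p under 0.05 over 12240 genes). The count was 0 higher and 0 lower, where 2.08% of all tested genes passed as higher and 0.507% as lower. At an unadjusted p under 0.05, 3 of the 9 were higher (Parp9, Parp10 and Parp12) and 0 lower, against 12.8% of all genes higher and 1011 of the 12240 lower. DESeq2 called Parp9 alone, with 6.08% of all genes called as higher. Limma-voom called 0 of the 9, and 166 of all genes as higher. It gave 3 of the 9 an unadjusted p under 0.05, beside 2478 of all 12240 genes in either direction. In 6 of the 9 every A20 deletion library lay above both controls, a pattern seen in 21.8% of all tested genes. For Parp11 and Dtx3l the margin was narrow. The lowest A20 deletion library and the highest control stood at 25.36 and 25.12 CPM for Parp11, and at 87.19 and 85.79 CPM for Dtx3l. The median log2 fold change was 0.47 over the 9 genes and 0.05 over all genes tested. In bulk RNA, more cells expressing a gene and more RNA per cell cannot be told apart.

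**Figure D1:**
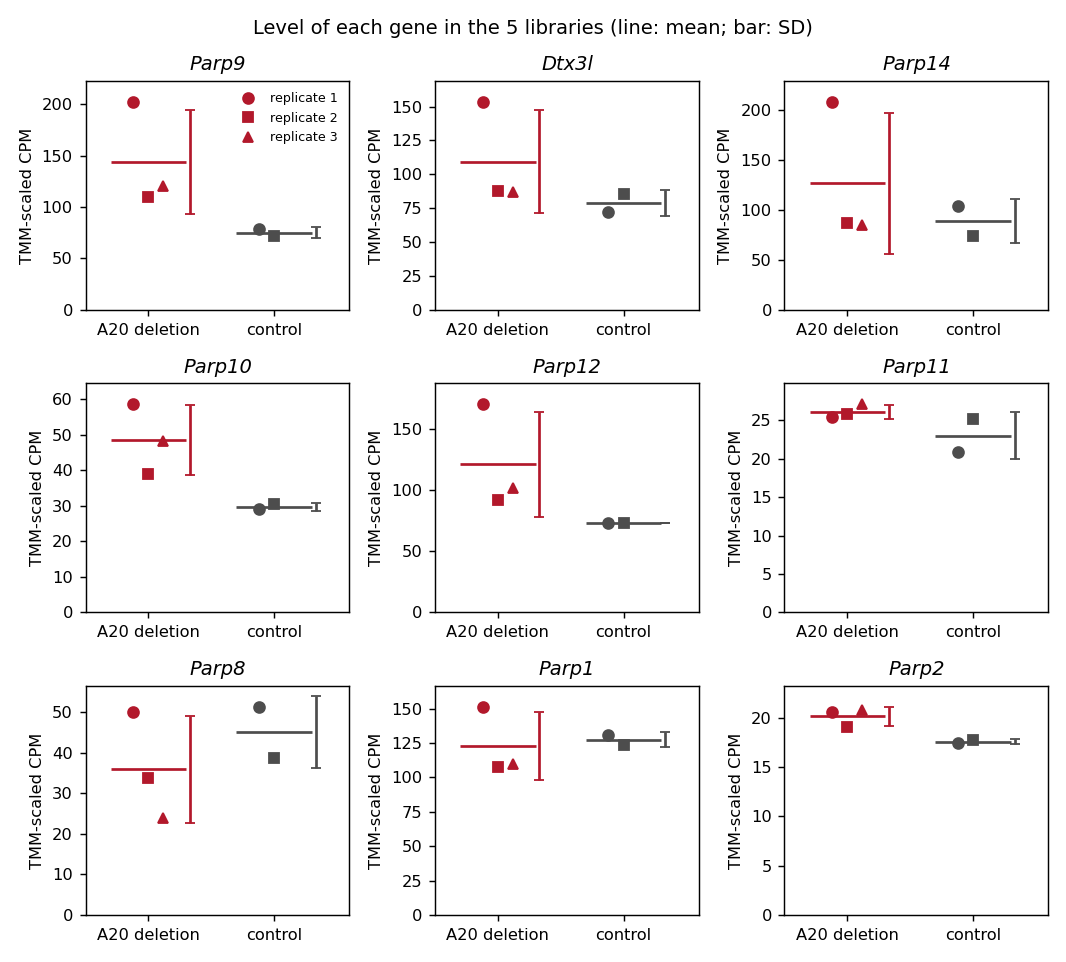
TMM-scaled CPM (y axis, from 0) of the 9 genes in the A20 deletion libraries (red, n = 3) and the control libraries (grey, n = 2), with symbols for the replicate number, lines for group means and bars for the SD. A20 deletion replicate 1 (circle) is the highest of the 5 libraries in 6 genes, for example Parp14 at 208.3 CPM, and Parp11 and Parp2 stay within a narrow range. The share of all genes with replicate 1 highest was not counted.

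Parp9 and Dtx3l encode the partners of the ligase complex. Parp9 stood at 202.1, 109.5 and 120.7 CPM in the libraries with A20 deletion, against 78.87 and 71.44 CPM in the controls. The groups did not overlap, and replicate 1 was far above the other A20 deletion libraries. Parp9 averaged 144.1 ± 50.57 CPM in A20 deletion and 75.15 ± 5.251 CPM in control microglia (SD, n = 3 and 2), a log2 fold change of 0.94 (SE 0.29, 95% interval 0.26 to 1.61, edgeR adjusted p = 0.149). DESeq2 gave 0.91 with an adjusted p of 0.0442. Dtx3l stood at 153.5, 87.47 and 87.19 CPM in A20 deletion libraries and at 71.98 and 85.79 CPM in controls. Its replicates 2 and 3 were barely above control replicate 2, so the absence of overlap rests on a narrow margin. The log2 fold change of Dtx3l was 0.47 (SE 0.28, interval -0.20 to 1.14, edgeR adjusted p = 0.364).

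Within each library the log2 ratio of Parp9 to Dtx3l counts was 0.40, 0.32 and 0.47 in A20 deletion and 0.13 and -0.26 in control microglia. Every A20 deletion library was above both controls, and the mean difference was 0.46. It depended on the control kept, at 0.66 without control replicate 1 and 0.26 without control replicate 2. The share of gene pairs with such a separation was not counted. The exact two-sided permutation test over the 5 libraries gave p = 0.1, the smallest that 3 against 2 libraries allow, so the design cannot reach 0.05. Reads from the overlapping 5′ ends of these genes enter this ratio in a way that cannot be resolved here.

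Parp14, a large macrodomain enzyme also known as a STAT6 cofactor, varied most between libraries. It stood at 208.3, 86.92 and 85.26 CPM in the libraries with A20 deletion, against 104.3 and 73.68 CPM in the controls. Replicate 1 stood far above the rest, while replicates 2 and 3 lay between the controls, so the groups overlapped. The group means were 126.8 ± 70.56 CPM in A20 deletion and 88.99 ± 21.65 CPM in control microglia (SD, n = 3 and 2), with a log2 fold change of 0.51 (SE 0.42, interval -0.48 to 1.5, edgeR adjusted p = 0.492). Without A20 deletion replicate 1 the log2 fold change was -0.08.

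Parp10 and Parp12 encode mono-ADP-ribosyltransferases, PARP12 having zinc fingers that bind RNA and a role against RNA viruses. Parp10 stood at 58.59, 38.87 and 48.33 CPM in the libraries with A20 deletion, against 28.99 and 30.43 CPM in the controls. The controls nearly coincided and all A20 deletion libraries were above them. The log2 fold change of Parp10 was 0.71 (SE 0.21, interval 0.21 to 1.21, edgeR adjusted p = 0.144). Parp12 stood at 170.1, 91.71 and 101.3 CPM in A20 deletion and at 73.25 and 72.92 CPM in control libraries. It showed the same order, with replicate 1 highest and replicate 2 lowest of the A20 deletion libraries. The log2 fold change of Parp12 was 0.73 (SE 0.28, interval 0.06 to 1.40, edgeR adjusted p = 0.213).

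Parp11 and Parp8 were near the controls or below them. Parp11, whose human protein has been linked to the type I interferon receptor, stood at 25.36, 25.83 and 27.06 CPM in the libraries with A20 deletion, against 20.89 and 25.12 CPM in the controls. Replicate 1 did not stand out in this gene. Every A20 deletion library was above both controls, but by a narrow margin over control replicate 2. The log2 fold change was 0.18 (SE 0.18, interval -0.24 to 0.60, edgeR adjusted p = 0.565). Parp8, a less studied mono-ADP-ribosyltransferase, stood at 49.93, 33.84 and 23.81 CPM in A20 deletion and at 51.3 and 38.76 CPM in control libraries. The groups overlapped, with replicate 3 the lowest of all, and the log2 fold change was -0.33 (SE 0.31, interval -1.06 to 0.40, edgeR adjusted p = 0.55).

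The constitutive pair showed small differences. Parp1 stood at 151.4, 107.7 and 109.7 CPM in the libraries with A20 deletion, against 131.2 and 123.4 CPM in the controls, which lay between replicate 1 and the others. The log2 fold change of Parp1 was -0.05 (SE 0.20, interval -0.52 to 0.42, edgeR adjusted p = 0.898). Parp2 stood at 20.6, 19.08 and 20.86 CPM in A20 deletion and at 17.41 and 17.75 CPM in control libraries. The groups of Parp2 did not overlap, but the difference was small (log2 fold change 0.20, SE 0.18, interval -0.22 to 0.62, edgeR adjusted p = 0.526). These intervals leave room for changes of either sign.

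Set against Parp1 and Parp2 in the same library, 3 of the 7 other genes had higher ratios in every A20 deletion library than in both controls, as did 14.6% of the 12238 tested genes other than Parp1 and Parp2. This ratio, the log2 count of a gene minus the mean log2 count of Parp1 and Parp2, does not depend on how libraries are scaled. For Parp9 it was 1.85, 1.27 and 1.33 in A20 deletion libraries and 0.72 and 0.61 in controls, a mean difference of 0.82 (a 1.77-fold higher ratio). For Parp10 the ratios were 0.07, -0.22 and 0.01 against -0.72 and -0.62, a difference of 0.62. For Parp12 they were 1.61, 1.02 and 1.08 against 0.62 and 0.64, a difference of 0.61. Each gave p = 0.1 in the exact two-sided permutation test, again the smallest possible, and 0.233 after adjustment over the 7 ratios. Without A20 deletion replicate 1 the differences of Parp9, Parp10 and Parp12 were 0.64, 0.57 and 0.42. The choice of denominator mattered. With Parp2 alone the 3 differences were 0.69, 0.49 and 0.47 (p = 0.1, 0.2 and 0.3 by the same permutation test). With Parp1 alone they were 0.95, 0.76 and 0.74.

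The remaining ratios overlapped between groups. Dtx3l differed by 0.36 (p = 0.4), Parp14 by 0.33 (p = 0.7), Parp11 by 0.12 (p = 0.5) and Parp8 by -0.44 (p = 0.4), by the same exact permutation test. For Parp14 the ratios of A20 deletion replicates 1 to 3 were 1.90, 0.94 and 0.83, against 1.12 and 0.65 in the controls. Without replicate 1 the difference of Parp14 was -0.0037, and that of Dtx3l 0.17.

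**Figure D2:**
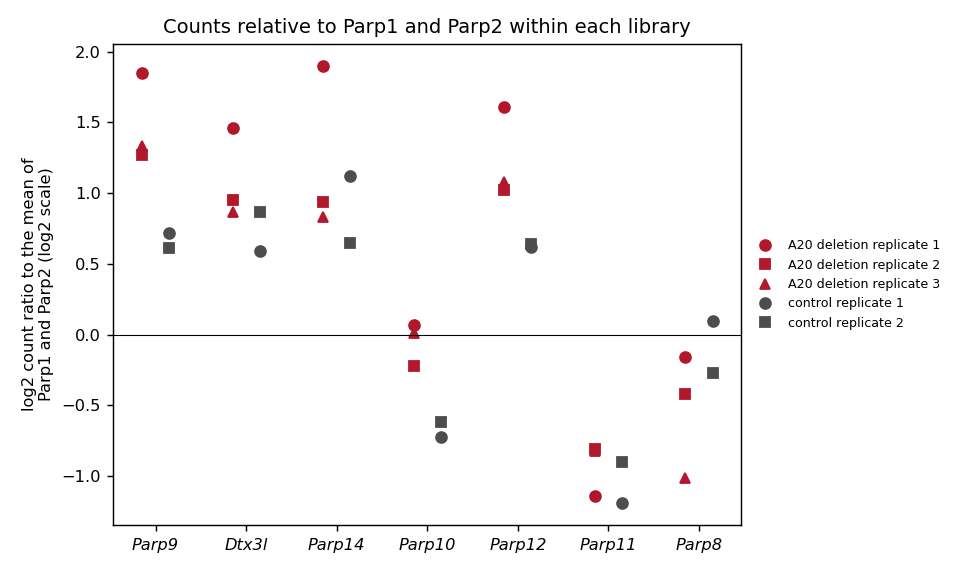
Log2 ratio of the counts of 7 genes to the mean of Parp1 and Parp2 in the same library (y axis, log2 scale), with the A20 deletion libraries in red and the controls in grey. For Parp9, Parp10 and Parp12 all 3 red points lie above both grey points, and for Parp14 the red circle at 1.90 is alone above the controls.

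The size of these differences depended on single libraries to unequal degrees. With single libraries left out, the log2 fold change ranged from -0.08 to 0.74 for Parp14 and from 0.12 to 0.62 for Dtx3l. The range was 0.52 to 0.86 for Parp10 and 0.14 to 0.25 for Parp2. A20 deletion replicate 1 was the highest of its group in 7 of the 9 genes, and was above both controls in 8. The share of all tested genes with these patterns was not counted, so whether they are particular to the 9 genes is not known. With A20 deletion replicate 1 as the only library of its group, 5 genes passed as higher, namely Parp9 (log2 fold change 1.44, edgeR adjusted p = 0.00435), Parp12 (1.23, 0.00847), Parp14 (1.24, 0.0312), Dtx3l (0.97, 0.0365) and Parp10 (0.99, 0.0383). In that fit 2.64% of all genes tested passed as higher. It assumes that the lone library varies like the 2 controls. Without replicate 1, Parp9 (0.59, adjusted p = 0.0129) and Parp10 (0.52, 0.0359) passed as higher and Parp8 (-0.66, 0.0468) as lower by edgeR, in a fit where 3923 genes passed (15.7% of those tested as higher and 16.7% as lower) and where the groups coincide with the mitochondrial and long-gene shares. These fits share both controls. The monocyte and endothelial marker sums were also highest in replicate 1, and the astrocyte and oligodendrocyte sums in replicates 2 and 3. The part of these cells in the values was not tested.

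**Figure D3:**
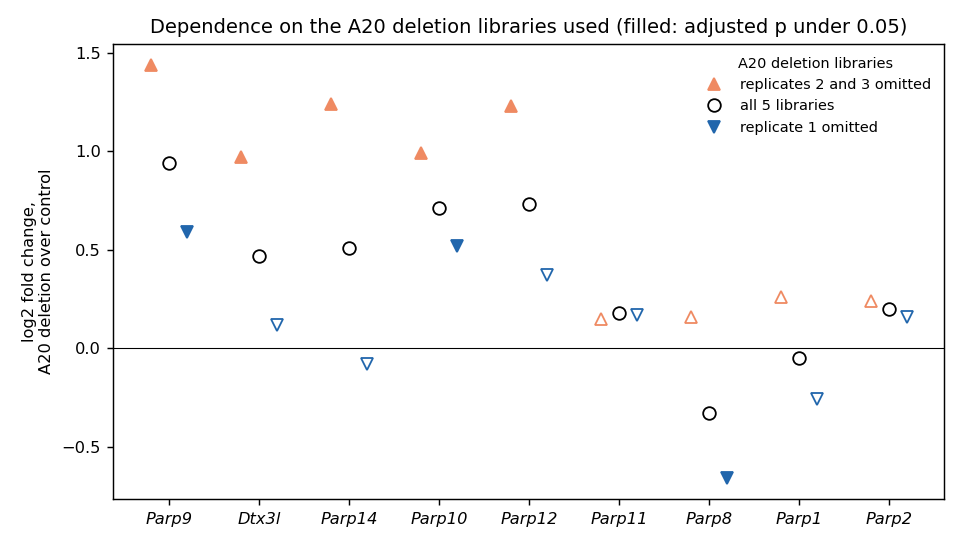
Log2 fold change of each of the 9 genes (y axis, A20 deletion over control, both controls kept) with A20 deletion replicates 2 and 3 omitted (up triangles), with all 5 libraries (circles) and with replicate 1 omitted (down triangles). Filled symbols have an edgeR adjusted p under 0.05. The values fan out widest for Parp14, from 1.24 to -0.08, and stay close together for Parp11 and Parp2.

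The mitochondrial share and sex were each added to the model as a covariate, the second chosen after the data were seen. With the mitochondrial share, 4 genes passed as higher, Parp9 (log2 fold change 1.35, edgeR adjusted p = 0.00353), Parp12 (1.15, 0.00627), Parp10 (0.98, 0.0221) and Dtx3l (0.89, 0.0359), where 2.77% of all genes passed as higher. Of the A20 deletion libraries only replicate 1 (0.847%) was near the controls (1.19% and 0.852%) in this share, so the fit leans on replicate 1. Its fold changes were close to those with replicates 2 and 3 omitted (Parp9 1.44, Parp12 1.23, Parp10 0.99 and Dtx3l 0.97). It is therefore no separate support for these calls. With the presence of Xist counts as a covariate 1 gene passed, Parp9 (0.97, edgeR adjusted p = 0.0275), where 4.6% of all genes passed as higher. After each library's trend on gene length was removed, 0 of the 9 passed by edgeR, and 265 of all genes passed as higher. Of the 9, 3 had an unadjusted p under 0.05, as had 2546 of all genes in either direction. Parp9 and Parp14 then had log2 fold changes of 0.97 and 0.68 (edgeR adjusted p = 0.121 and 0.282).

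Per kilobase of annotated exon, the order of levels differed between the groups. In A20 deletion microglia Parp12 and Parp9 led at 30.3 and 29.58 CPM per kilobase, followed by Parp1 (23.22), Dtx3l (19.11), Parp14 (13.63), Parp10 (11.37), Parp2 (5.562), Parp8 (4.037) and Parp11 (3.712). In controls Parp1 led at 24.05, followed by Parp12 (18.29), Parp9 (15.43), Dtx3l (13.78), Parp14 (9.563), Parp10 (6.95), Parp8 (5.07), Parp2 (4.845) and Parp11 (3.274). Taken as ranges over the A20 deletion libraries, all neighbours in this order overlapped except Parp10 and Parp2. Within A20 deletion replicates 1 and 2 the order nevertheless held throughout. It also held in replicate 3, except that Parp10 (11.3) was above Parp14 (9.162) and Parp11 (3.852) above Parp8 (2.68). In the controls the pairs Parp9 and Dtx3l, and Parp8 and Parp2, overlapped, and each pair changed order in control replicate 2. Summed over Parp9, Dtx3l, Parp14, Parp10 and Parp12, the level without length scaling was 792.7, 414.5 and 442.8 CPM in A20 deletion libraries and 357.4 and 334.3 CPM in controls. The sum of Parp1 and Parp2 was 172, 126.7 and 130.5 CPM, against 148.6 and 141.2 CPM.

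A list of 11 receptor, kinase, Stat2 and IRF genes is here called interferon signal transducers. Of these 11, 1 passed as higher and 0 as lower by edgeR, against 2.08% and 0.507% of all tested genes. At an unadjusted p under 0.05, 3 of the 11 were higher and 0 lower, against 1564 and 1011 of all 12240 genes. Irf7, which amplifies type I interferon production, stood at 259.7, 117.7 and 179.8 CPM in A20 deletion and at 13.14 and 11.98 CPM in control libraries, and rose 14.8-fold (log2 3.89, SE 0.37, edgeR adjusted p = 0.00655). Every A20 deletion library lay above both controls. With control replicate 1 or 2 left out the log2 fold change of Irf7 was as large, at 3.91 and 3.77, while the call was lost (edgeR adjusted p = 0.0967 and 0.137) in fits that called 18 and 0 genes in all (1367 and 1323 at an unadjusted p under 0.05). Neither the receptor chains Ifngr1 and Ifngr2 (log2 fold changes -0.25 and 0.16) nor the kinase Jak1 (-0.53) passed. The median of the list was 0.16. DESeq2 called 2 of the 11, with Stat2 added, where it called 6.08% of all genes as higher. Stat2 stood at 117.2, 51.19 and 68.47 CPM in A20 deletion and at 32.4 and 28.19 CPM in control libraries. Its groups did not overlap (log2 fold change 1.38, SE 0.35, edgeR adjusted p = 0.103).

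**Figure D4:**
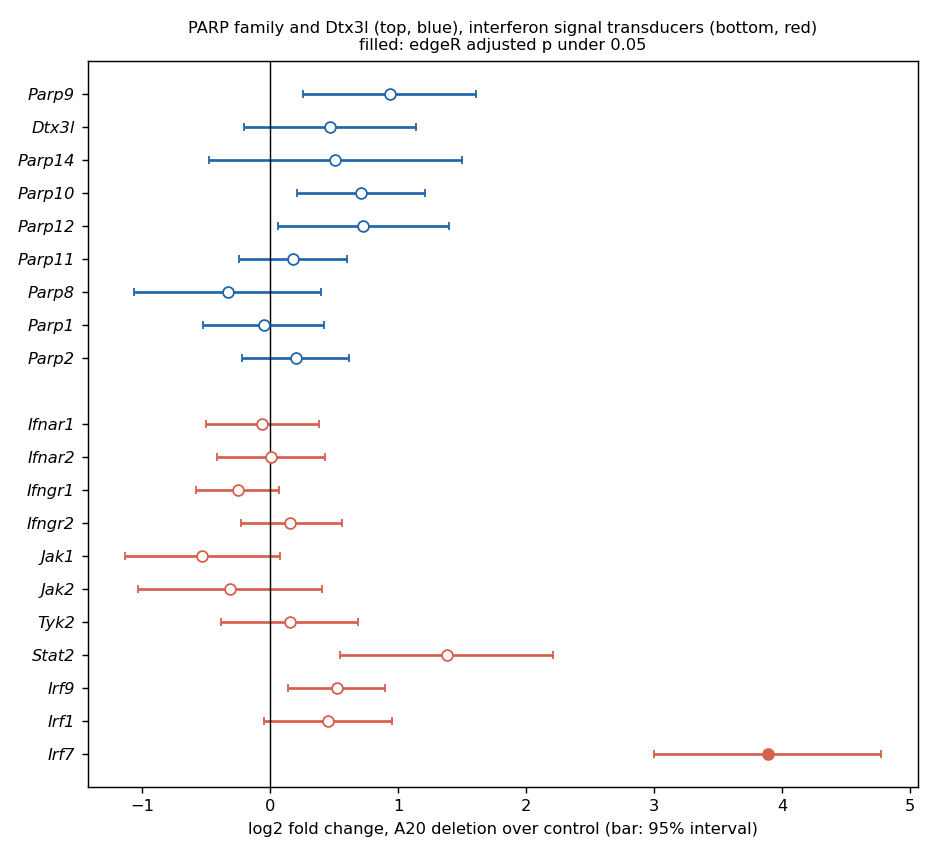
Log2 fold change of A20 deletion over control with its 95% interval (x axis) for the 9 genes (blue, top) and the 11 interferon signal transducers (red, bottom), from the fit to all 5 libraries. Filled points have an edgeR adjusted p under 0.05, which Irf7 at 3.89 reached and none of the 9 genes did.

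In 5 further lists of ADP-ribose and NAD genes edgeR, DESeq2 and limma-voom each called 0 genes. Their counts at an unadjusted p under 0.05 stand beside 1564 higher and 1011 lower of all 12240 genes tested. Of 8 other PARP family genes 0 passed by edgeR, and 1 had an unadjusted p under 0.05, in the lower direction (median log2 fold change -0.26). It was Tnks2, a tankyrase that modifies telomere and Wnt pathway proteins, at 270.2, 155.4 and 145.1 CPM in A20 deletion and 311.3 and 304.2 CPM in control libraries (log2 fold change -0.69, edgeR adjusted p = 0.221). Zc3hav1, the antiviral zinc finger protein PARP13 that lacks enzymatic activity, stood at 110.7, 47.58 and 65.01 CPM, against 72.05 and 51.77 CPM, so replicate 1 was again highest (log2 fold change 0.27, adjusted p = 0.673). Tnks had a log2 fold change of -0.56 (adjusted p = 0.401). Its replicates 2 and 3 were the low ones, at 19.47 and 23.91 CPM, while replicate 1 was at 48.37 CPM and the controls at 45.9 and 44.15 CPM.

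Of 9 genes that remove or bind ADP-ribose 7 were tested and 0 passed by edgeR, with 1 higher and 1 lower at an unadjusted p under 0.05 (median log2 fold change 0.05). Adprh, which cleaves ADP-ribose from arginine, Adprhl2, which cleaves it from serine, and Gdap2 had log2 fold changes of -0.14, 0.05 and -0.44. Of 7 partners of PARP1 and PARP2 in DNA repair 0 passed, with 1 lower at an unadjusted p under 0.05 (median 0.06). The serine specificity factor Hpf1, the scaffold Xrcc1 and Tdp1, which frees DNA ends from trapped topoisomerase, had log2 fold changes of 0.11, -0.01 and 0.06. Of 6 ligases, the deltex relatives of Dtx3l with Rnf114 and Rnf146, 0 passed, with 2 higher and 1 lower at an unadjusted p under 0.05 (median 0.20). Dtx4 was at 332.6, 244.3 and 243.2 CPM in A20 deletion and at 372.4 and 384.8 CPM in control libraries (log2 fold change -0.47), and Rnf114 and Dtx2 had log2 fold changes of 0.37 and 0.02.

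Of 17 genes of NAD supply and use 14 were tested and 0 passed by edgeR, with 2 higher at an unadjusted p under 0.05 and a median log2 fold change of 0.52. Nampt, the rate-limiting enzyme of NAD+ salvage and thus of the substrate of PARP enzymes, stood at 131.9, 69.1 and 67.45 CPM in A20 deletion and 50.66 and 46.45 CPM in control libraries. The groups did not overlap and replicate 1 was far the highest, as in Parp9 (log2 fold change 0.88, SE 0.32, edgeR adjusted p = 0.192). The NAD kinase Nadk stood at 196.5, 130.4 and 153.2 CPM, against 112 and 118.7 CPM (log2 0.47, adjusted p = 0.249), and the mitochondrial Nadk2 had a log2 fold change of -0.34.

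The genes whose 5 log2 CPM values, centred on their own mean, lay nearest to each gene were looked up among 8470 candidates. For Parp9 they were Nampt and Trim30a at a Euclidean distance of 0.19 and Gbp2b at 0.20. For Parp12 they were Adar at 0.08 and Trim30a and Tent4a at 0.11, all of them highest in A20 deletion replicate 1. Adar, for example, stood at 266.7, 148.8 and 159.8 CPM in A20 deletion and at 118.5 and 110.6 CPM in control libraries. Parp14 had no close neighbour but Znfx1, at 0.26, with the next genes Tns1 and Chst15 at 0.39. The nearest genes were Ssh3, Gm5431 and Src for Dtx3l (0.16 to 0.22) and Nfkb2, Arhgap19 and Mapkapk3 for Parp10 (0.20 to 0.21). Within the set, Parp9 and Parp12 were nearest to each other at 0.25, each ranking 9 on the other's list, and both Parp14 and Dtx3l were nearest to Parp12, at 0.60 and 0.34.

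Parp1, Parp2, Parp8 and Parp11 had other neighbours. Those of Parp1 were Wdr3, Suz12 and Selenot at 0.06, those of Parp2 were Cotl1, Timp2 and Qars at 0.05 to 0.07, those of Parp11 were Abcb1b, Fbxo9 and Sumf2 at 0.06, and those of Parp8 were Mbd5, Chfr and Trim3 at 0.14 to 0.19. The nearest of the 9 genes to Parp1 was Parp2, at rank 2358. With 5 libraries that also differ in sex and structure, nearness describes these libraries only.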

How the data were processed

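The authors deposited raw read counts per Ensembl gene in 1 table of 5 libraries. Per the submitters' processing notes, STAR 2.4.0j, featureCounts, DESeq2 1.22.1 and GRCm38 apply to these counts. Not given in the sources used here: annotation release, strand setting and handling of multi-mapping reads. Symbols and exon lengths came from GENCODE M21, which matched 40340 of 41388 identifiers.

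Counts were filtered with filterByExpr (minimum count 10, minimum total 15), scaled by edgeR's TMM factors (trimmed mean of M values) and compared with edgeR 4.0.16's quasi-likelihood test, two-sided and without covariates, in R 4.3.3. Benjamini-Hochberg adjustment ran over all tested genes with a threshold of 0.05. CPM use the TMM-scaled totals. Standard errors are the absolute log2 fold change over the root of F, and the 95% interval uses the test's degrees of freedom. Both are approximate. Ratios within a library used counts plus 0.5. All pairs of libraries differed by more than sampling noise (chi-square per degree of freedom 15.2 to 141). The procedure was tested on simulated data.

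The 9 genes, the gene lists and the tests were chosen with earlier results of these data known. Genes named are the 9, list genes that passed, up to 3 further genes per list with the highest mean CPM, and the 3 nearest profiles. Some genes of the lists are not reported here and were left out of the lists' counts and medians. The alternatives were other scalings and filters, DESeq2 1.42.0, limma-voom (limma 3.58.1), a robust fit, a stricter threshold, a replicate block, a length correction, covariates, other denominators and a prior count of 2 for the ratios, and leaving out libraries.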

Additional observations from a re-analysis of the deposited data

How the results depend on the processing

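The count of 0 genes higher among the 9 became 3 without the filter on low counts. In that fit 1048 of the 1701 genes called were higher, and their share of all genes tested was not computed. The count became 1 with DESeq2 (744 of the 1110 genes called were higher, 6.08% of those tested). With the mitochondrial share as a covariate it became 4 (339 of 417 higher, 2.77% of those tested). With Xist as a covariate it became 1 (563 of 824 higher, 4.6% of those tested). The count also changed with A20 deletion replicates 2 and 3 omitted, as given above. It ranged from 0 to 2, and the count lower from 0 to 1, when single libraries were left out, and 0 to 3923 genes were called in all. The number over all genes was 0 where control replicate 2 was omitted (by edgeR, 1323 had an unadjusted p under 0.05), 18 where control replicate 1 was, and 3923, 178 and 90 where A20 deletion replicates 1, 2 and 3 were. Limma-voom called 211 genes and an adjusted p under 0.01 left 58. With the replicate number as a block 260 genes and 0 of the 9 passed by edgeR. At an unadjusted p under 0.05 were 4 of the 9, beside 1885 of all genes in either direction. The labels do not say what the numbers share, and deviations from the group means correlated at 0.26 for replicate 1 and 0.17 for replicate 2. Xist was counted in both replicate 1 libraries (616 and 780) and in neither replicate 2 library, so the number coincides with sex there. Replicate 3 exists only in the A20 deletion group, so in the block fit it adds nothing to the comparison of groups. The block changed no call among the 9, and Parp1 moved to 0.005.

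Of 162 refits of the 9 genes' fold changes 136 kept direction and call, 17 passed where the result had not and 9 changed sign. Parp1 was 0.0032 with upper quartile scaling, 0.0019 with the length trend removed, 0.20 with the mitochondrial covariate, 0.26 with A20 deletion replicates 2 and 3 omitted (Parp8 0.16 there), and -0.26 to 0.05 with single libraries left out (Parp14 -0.08 to 0.74). Among list genes, Xrcc1 was 0.05 with upper quartile scaling, 0.04 with the stricter filter, 0.08 with the length trend removed, 0.15 with the mitochondrial covariate, 0.01 with Xist and 0.12 with replicates 2 and 3 omitted. Under the last, Tnks was 0.11, Adprhl2 -0.04 and Hpf1 -0.06. With the mitochondrial covariate Tnks was 0.02, Adprhl2 -0.04 and Hpf1 -0.02. Adprhl2 was -0.14 with the length trend removed, Tdp1 -0.02 with the block, and Dtx2 -0.01 with DESeq2 or its scaling, library size scaling or no filter. Leaving out single libraries gave -0.17 to 0.52 for Zc3hav1, -0.16 to 0.19 for Adprhl2, -0.02 to 0.16 for Hpf1, -0.12 to 0.14 for Xrcc1, -0.04 to 0.16 for Tdp1, -0.08 to 0.04 for Dtx2 and -0.04 to 0.29 for Ifngr2, and for the ratios to Parp1 and Parp2 -0.03 to 0.27 for Parp11 and -0.0037 to 0.57 for Parp14. The ratio of Parp11 to Parp2 alone differed by -0.01. The cause of these moves was not tested. With 5 libraries the exact permutation test cannot pass 0.05, so an unchanged verdict there says nothing of stability.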
